A study of Caenorhabditis elegans with 6 samples.

Results

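RNA of the histone genes of the nematode Caenorhabditis elegans was measured in whole worms after a short exposure to chaetocin. Every gene whose name in the gene table begins with his- and a digit was taken, which gave 72 of 46926 genes, all annotated as protein coding. RNA was sequenced from 3 libraries of chaetocin-treated worms and 3 libraries of vehicle-treated worms, all of the wild-type strain N2. Synchronized animals were raised on the bacterial strain OP50 to a stage between late L4 larva and young adult, and were then rotated in liquid with heat-treated OP50 for 5 h. The chaetocin group received 25 µM of the compound, and the control group received the solvent DMSO. Both groups were thus washed off their plates and kept in liquid for the same time. The labels number the libraries of each group as biological replicates 1 to 3. Whether the replicates were separate cultures is not said, and the spread behind each p-value may therefore be technical.

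Histones are the proteins around which DNA is wound. H2A, H2B, H3 and H4 form the core of the nucleosome, and the linker histone H1 binds where DNA enters and leaves it. Most core histone genes of animals are used during DNA replication, lie in clusters of near-identical copies, and give mRNAs that end in a stem-loop instead of a poly(A) tail. Replacement variants, such as H3.3, come from separate genes, are made outside S phase as well, and have polyadenylated mRNAs. In the adult worm most dividing cells are in the germ line. Chaetocin, made by fungi, is widely used to inhibit enzymes that methylate histone lysines, and the study asks how exposure to it affects gene expression.

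By class, the 72 genes held 1 H1 gene, 17 H2A genes, 16 H2B genes, 20 H3 genes, 16 H4 genes and 2 short models that were left without a class. Coding length was 103 codons for every H4 gene and 127 for every H2A gene, and 122 or 123 for the H2B genes. H3 genes had 136 codons, except his-70 with 134 and his-69 with 127. The length of his-69 equals that of the H2A genes, and its place in H3 rests on its name. Untranslated regions (UTRs) were annotated for 8 genes, which were also the 8 with more than 1 exon. The other 64 models consisted of coding sequence alone. In 14 genomic clusters, in which neighbours lay at most 5000 bases apart, stood 67 of the 72 genes, and 10 of these clusters held genes of all 4 core classes. Equal values in the table tied 37 genes into 14 groups of 2 to 4 apparent copies.

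Levels are given as FPKM, fragments scaled to transcript length and to library size, after a scaling of the libraries by factors between 0.977 and 1.02. The 6 libraries held values above 0 for between 18747 and 18933 genes. Counts per library were not at hand, so depth is unknown. Ribosomal RNA took 0.755, 4.13 and 1.04% of all FPKM in chaetocin replicates 1 to 3, and 1.59, 2.77 and 1.26% in DMSO replicates 1 to 3. Chaetocin replicate 2 thus had the largest share of ribosomal RNA. It also stood apart in many histone genes without UTRs, so results that turn on it are given with and without it. Since whole worms were used, fewer cells of a type and less RNA per cell cannot be told apart. The libraries were made with a kit for mRNA, and how well it captured mRNAs without a poly(A) tail was not measured.

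Summed histone RNA was about equal in both groups. The 72 genes together had 2576, 2666 and 2358 FPKM in chaetocin replicates 1 to 3, against 2435, 2481 and 2701 FPKM in DMSO replicates 1 to 3. The 2 ranges overlapped. The means were 2533 ± 158 FPKM with chaetocin and 2539 ± 142 FPKM with DMSO (SD, n = 3 each), a ratio of 0.998. Histone genes took between 0.192 and 0.213% of all FPKM in a library.

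Of the 72 genes, 64 reached at least 0.5 FPKM in at least 3 libraries and were tested with limma on log2(scaled FPKM + 0.1). On this scale the added 0.1 draws changes of lowly measured genes toward 0, whereas a listed 0 in a library can enlarge them. With a threshold of 0.05 on the Benjamini-Hochberg adjusted p over all 15209 genes tested, 0 histone genes were higher and 0 were lower with chaetocin. Over all genes tested 8.48% passed, with 829 higher (5.45%) and 461 lower (3.03%). At an unadjusted limma p under 0.05 stood 5 of the 64 histone genes, beside 20.5% of all genes. The smallest limma adjusted p of a histone gene was 0.0857. The authors' deposited table lists 64 histone genes, with 0 under 0.05 by its p-value column, where 9.06% of its 16062 genes were under 0.05. An unadjusted normal p computed here from the fold change and standard error of the authors' deposited table was under 0.05 for 2 histone genes, the copies his-12 and his-43, beside 17.2% of its genes.

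The groups did not overlap in 8 of the 64 genes, all lower with chaetocin, beside 26.2% of all genes. These 8 genes include copies that the table lists with the same values. The median log2 fold change of the 64 was -0.11, with 23 above 0 and 41 below, and single genes ranged from -1.94 to 0.80. Over all genes tested the median was -0.006, with 7343 above 0 and 7866 below. The genes without a fit were his-29, his-30, his-33, his-34, his-39, his-42, his-69 and his-73. Apart from the short models his-39 and his-73, none of these exceeded 1.14 FPKM in a library, the value of his-29 and his-34 in chaetocin replicate 2.

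Precision differed widely among the histone genes, and a p that misses the threshold does not show that levels did not differ. The median standard error of the log2 fold change was 0.06 for the 8 genes with UTRs and 0.26 for the 56 tested genes without, against 0.09 over all genes. After apparent copies were summed, 44 features remained to be tested. The 95% interval of the fold change lay within 2-fold in both directions for 32 of the 44, including all 8 with UTRs. It lay within 1.5-fold for 14, 7 of them with UTRs, and within 1.2-fold for 4, all with UTRs.

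**Figure D1:**
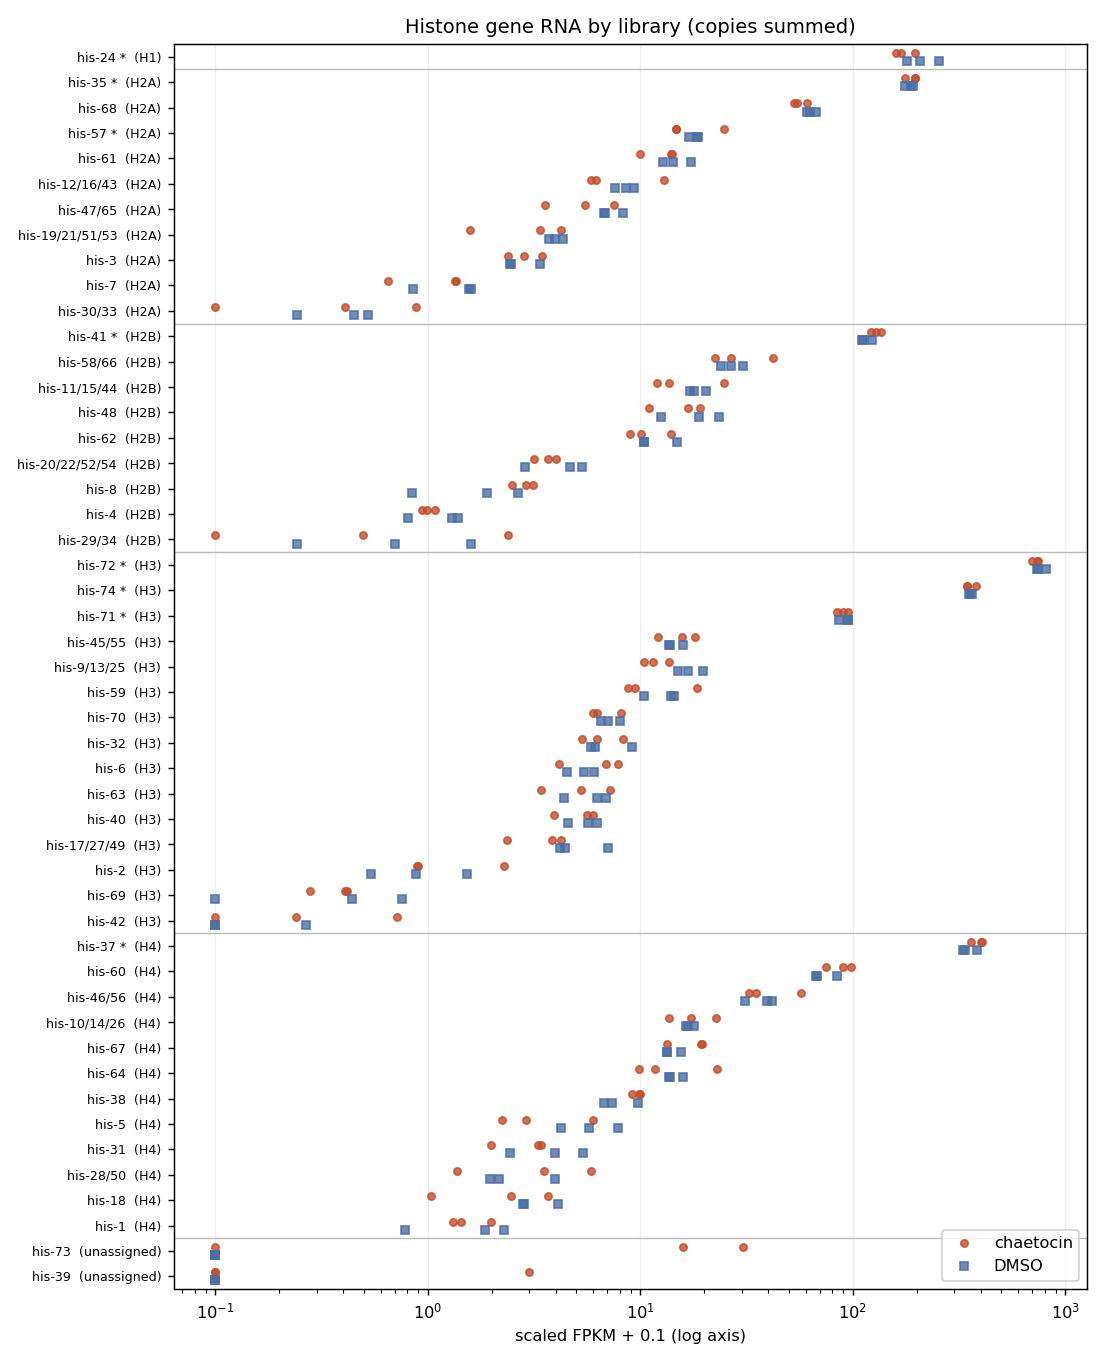
Scaled FPKM plus 0.1 (log axis) of each histone gene or summed group of copies in the 3 chaetocin libraries (circles, upper in each row) and the 3 DMSO libraries (squares, lower), arranged by histone class. An asterisk marks the 8 genes with annotated UTRs, which include his-72 near 744 FPKM, and most rows show overlapping groups.

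Most of the measured histone RNA came from the 8 genes with UTRs, among them the linker histone gene his-24 and the H3.3-type genes his-71, his-72 and his-74. The 8 genes took between 79.6 and 83.4% of histone FPKM in each library. Their mean levels ran from 17.95 to 744 FPKM, with a median of 191, whereas those without UTRs ran from 0.153 to 80.03 FPKM, with a median of 3.75. These levels depend on the gene model. The authors' deposited table gave 14.5 mean normalized counts per FPKM for his-72, whose longer transcript has 631 bases, and 54.6 for his-24, with 923 bases. For his-71 and his-74, with 591 and 580 bases, this ratio was 18.9 and 14.4. That of his-24 was thus higher than its length alone would give, and the reason was not tested. For 8 single-copy genes of 312 bases the same ratio, using the authors' deposited table, lay between 3.52 and 4.88. The ratio of levels between long and short models was therefore not read as a ratio of molecules.

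H3.3 is the replacement form of H3, and in C. elegans his-69, his-70, his-71, his-72 and his-74 are counted as H3.3-type genes. The gene with the highest level of all, his-72 (chromosome III, 12367475 to 12369050, WBcel235), had 737, 742 and 697 FPKM in the chaetocin libraries, against 734, 745 and 810.4 FPKM in the DMSO libraries. The groups overlapped, with DMSO replicate 3 the highest of the 6. Its log2 fold change was -0.07 ± 0.05 (± standard error, 95% interval -0.19 to 0.04; limma adjusted p = 0.465). This gene alone held between 27.8 and 30.1% of histone FPKM in each library.

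The annotation gives his-72 a pair of transcripts with different coding sequences, of 136 and 151 codons. The 136-codon transcript had 269, 286 and 256 FPKM with chaetocin, against 269, 292 and 294 FPKM with DMSO. The 151-codon transcript had 468, 456 and 441 FPKM with chaetocin, against 465, 454 and 516 FPKM with DMSO. Both pairs of groups overlapped, and the log2 fold changes were -0.08 and -0.07 (limma over 20980 transcripts, adjusted p = 0.576 and 0.611), where 4.65% of all transcripts passed the threshold. Fragments shared by the transcripts were divided by estimation, so the split between them is uncertain.

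The second H3.3-type gene by level, his-74 (chromosome V, 12659704 to 12660330), had 382, 346 and 343 FPKM with chaetocin, against 352, 365 and 354 FPKM with DMSO. The chaetocin libraries lay on both sides of the DMSO libraries. Its log2 fold change was -0.002 ± 0.05, with a 95% interval of -0.11 to 0.11 (limma adjusted p = 0.986). On chromosome X, his-71 had 94.7, 89.4 and 83.7 FPKM with chaetocin, against 86.1, 94.4 and 94.8 FPKM with DMSO, again with overlap (log2 fold change -0.04 ± 0.06, limma adjusted p = 0.76). The sum of the 5 H3.3-type genes was 1220.2, 1184 and 1132 FPKM with chaetocin and 1178, 1213 and 1268 FPKM with DMSO, also overlapping.

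The remaining H3.3-type genes lie side by side on chromosome III and were measured at far lower levels. The his-70 gene, of 134 codons, had 6.14, 5.92 and 7.98 FPKM with chaetocin, against 6.46, 6.91 and 7.89 FPKM with DMSO (log2 fold change -0.09 ± 0.14, limma adjusted p = 0.766). Its neighbour his-69 had 0.308, 0.317 and 0.179 FPKM with chaetocin, against 0, 0.655 and 0.342 FPKM with DMSO. With a listed 0 in DMSO replicate 1 and low values elsewhere, his-69 was not tested.

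The linker histone gene his-24 (chromosome X, 14490094 to 14491119), which encodes an H1 protein, had 159, 196 and 168 FPKM with chaetocin, against 207, 180.3 and 254 FPKM with DMSO. The groups overlapped through chaetocin replicate 2 and DMSO replicate 2. At -0.28 ± 0.13, its log2 fold change was short of the threshold (limma adjusted p = 0.297), and the 95% interval ran from -0.60 to 0.03. Of the 8 genes with UTRs it was the one with the largest distance of its log2 fold change from 0.

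Most remaining core histone RNA from genes with UTRs came from 1 cluster of 3 genes within 2949 bases of chromosome V (9544659 to 9547607). It holds the H2A gene his-35, the H4 gene his-37 and the H2B gene his-41. Together these had 736, 724 and 659 FPKM with chaetocin, against 623, 632 and 694 FPKM with DMSO, with overlap through chaetocin replicate 3 and DMSO replicate 3. For his-41 the values were 136, 128 and 122 FPKM with chaetocin, against 110.01, 111 and 123 FPKM with DMSO. Chaetocin replicate 3 and DMSO replicate 3 were about equal, and the other chaetocin libraries were above all DMSO libraries. Its log2 fold change of 0.17 ± 0.06 (95% interval 0.03 to 0.31) had a limma p of 0.0271 and an adjusted p of 0.17, which is short of the threshold.

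The H4 gene his-37 had 404, 399.9 and 360.1 FPKM with chaetocin, against 336, 328 and 384 FPKM with DMSO. DMSO replicate 3 lay inside the range of the chaetocin libraries, and at 0.15 ± 0.07 the log2 fold change was short of the threshold (limma adjusted p = 0.302). The H2A gene his-35 had 196, 196 and 177 FPKM with chaetocin, against 177, 193 and 187 FPKM with DMSO (log2 fold change 0.03 ± 0.05, limma adjusted p = 0.804). The last gene with UTRs, his-57 of H2A on chromosome IV, had 14.6, 24.6 and 14.6 FPKM with chaetocin, against 16.8, 18.6 and 18.5 FPKM with DMSO. Chaetocin replicate 2 was the highest of the 6 and the other chaetocin libraries were the lowest. Its log2 fold change was -0.04 ± 0.20 (limma adjusted p = 0.931), and -0.29 without that library. Of its 3 annotated transcripts, the one of 384 bases was listed with the same values as his-47 and his-65, so his-57 shares fragments with that pair of copies.

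**Figure D2:**
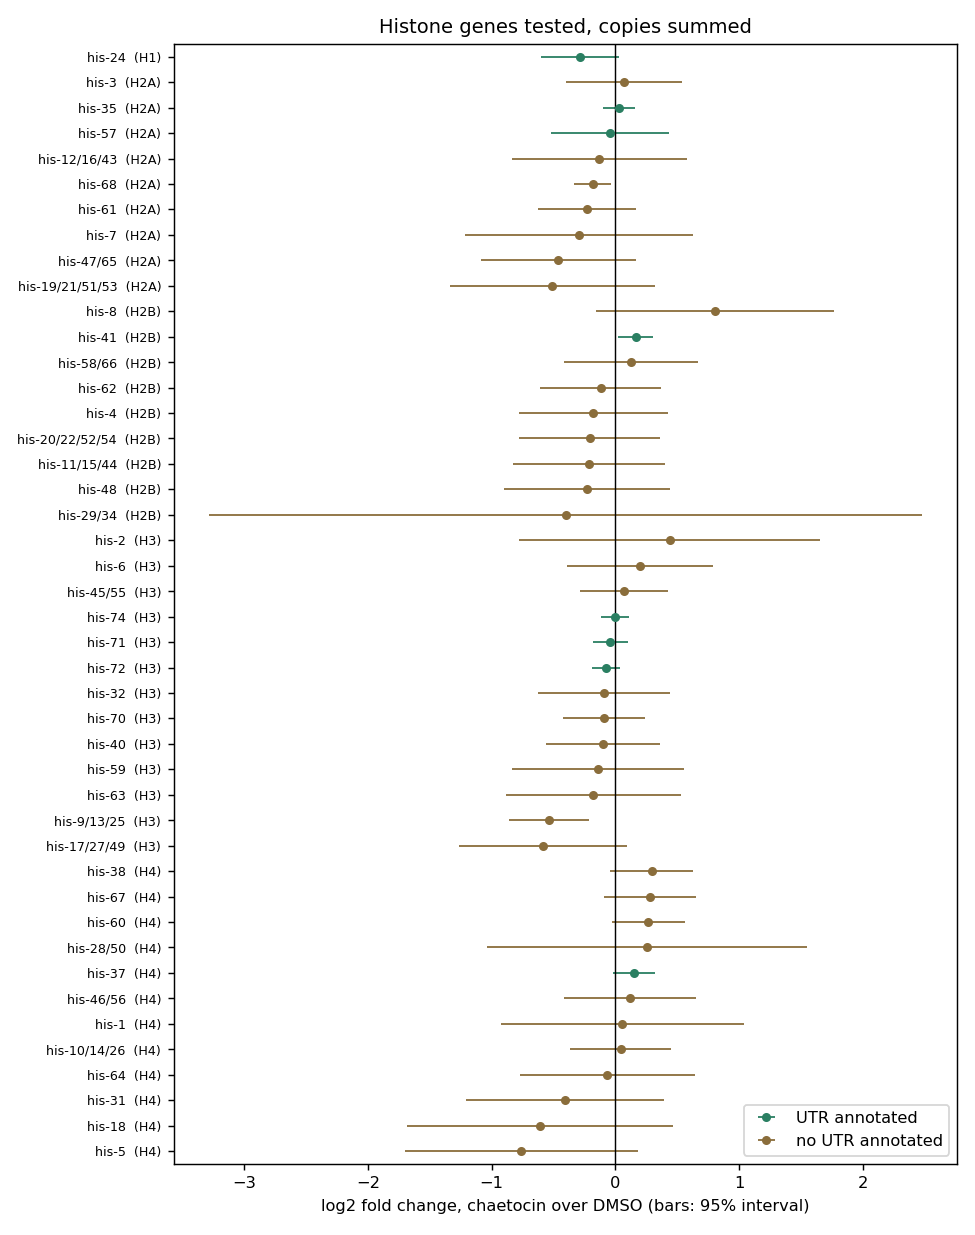
Log2 fold change of chaetocin over DMSO (x axis) for the 44 histone features tested after apparent copies were summed, with bars for the 95% interval, by class and by whether UTRs were annotated. Intervals of genes with UTRs are mostly narrow, and that of his-9/13/25 lies wholly below 0 at an estimate of -0.54.

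Genes without UTRs, nearly all in clusters, had low levels, as given above. Leaving out his-39 and his-73, the 62 of them summed to 421, 541 and 377 FPKM with chaetocin, against 417, 445 and 475 FPKM with DMSO. Chaetocin replicate 2 was above, and chaetocin replicate 3 below, every DMSO library. The means were 446 ± 84.9 FPKM with chaetocin and 446 ± 29.1 FPKM with DMSO (SD, n = 3 each), a ratio of 1.001. Without chaetocin replicate 2 the ratio was 0.895.

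Copies of a gene with identical sequence cannot be told apart by reads. No sequences were used here, so copies were recognised as genes of 1 class listed with the same FPKM above 0 in at least 3 of the 6 libraries. Of the 14 groups, 11 were equal in all 6 libraries, and the annotation gives 12 of them a single name for all their gene identifiers. Outside the 72, 0 genes matched a histone gene in all 6 libraries. The 37 genes in groups gave 14 summed values, and 49 features stood for the 72 genes.

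After summing, 0 of the 44 tested features passed the threshold (limma, Benjamini-Hochberg over 15189 genes), where 8.51% of all features passed. At an unadjusted limma p under 0.05 stood 3, beside 20.5% of all. The groups did not overlap for his-9/his-13/his-25 and for his-68, both lower with chaetocin. These genes, and those in the next paragraphs on copies, were chosen after their values were seen.

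The H3 copies his-9, his-13 and his-25, in a cluster on chromosome II, summed to 11.4, 13.6 and 10.3 FPKM with chaetocin, against 14.97, 16.6 and 19.7 FPKM with DMSO. Every chaetocin library was below every DMSO library. The log2 fold change of the sum was -0.54 ± 0.13 with a 95% interval of -0.86 to -0.22, and the limma adjusted p of 0.0614 missed the threshold. Fitted as single genes, each copy had a log2 fold change of -0.53 and a limma adjusted p of 0.0857. Without chaetocin replicate 2 the adjusted p of the sum was 0.0462, and over all alternatives for which a fit was made it lay between 0.0462 and 0.172. The authors' deposited table gives a log2 fold change of -0.53 ± 0.32 for his-9 and his-13, with a p-value of 0.446, and of -0.54 ± 0.65 for his-25, with a p-value of 0.798. The mean normalized counts in the authors' deposited table were 39.5 for his-9 and his-13 and 34.7 for his-25, and 103 for his-46 and 83.0 for his-56, though FPKM were equal within each group. Whether the members of a group are full copies was therefore not settled here.

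The H2A gene his-68 on chromosome I had 60.6, 54.5 and 52.6 FPKM with chaetocin, against 61.02, 62.5 and 66.6 FPKM with DMSO. The groups did not overlap, though chaetocin replicate 1 and DMSO replicate 1 almost touched. The log2 fold change was -0.18 ± 0.06, with a 95% interval of -0.33 to -0.03. Its limma p was 0.0233 and the adjusted p was 0.155. The other H2A genes named for their level were his-61 and his-16. For his-61 the values were 13.9, 14 and 9.87 FPKM with chaetocin, against 14.2, 12.7 and 17.1 FPKM with DMSO (log2 fold change -0.23 ± 0.17, limma adjusted p = 0.508).

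**Figure D3:**
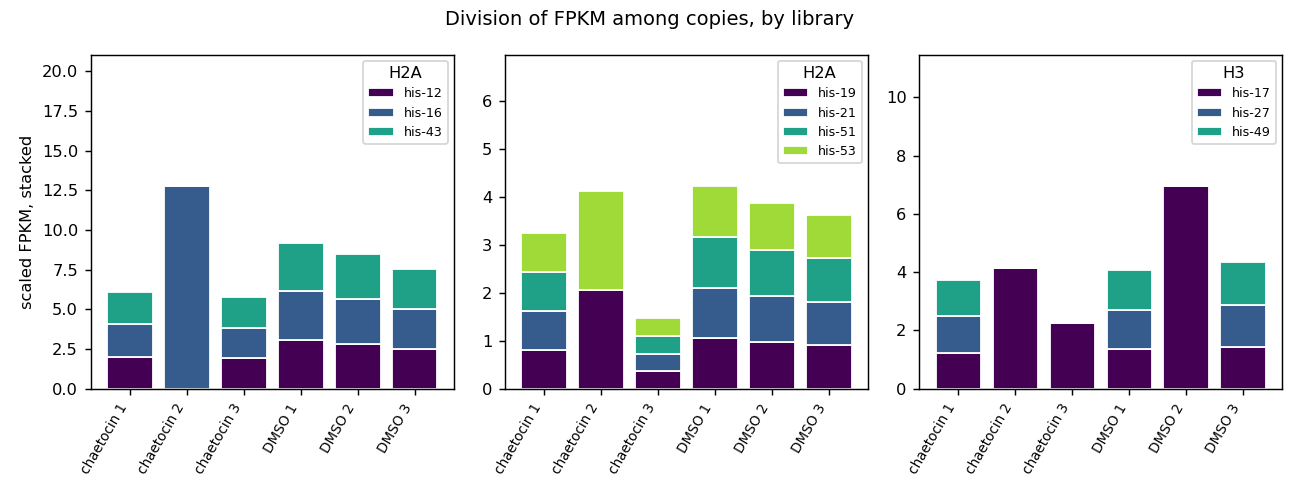
Scaled FPKM of 3 groups of apparent copies, stacked by gene, in each of the 6 libraries. In his-12/16/43 all 12.8 FPKM of chaetocin replicate 2 stand under his-16, whereas the other 5 libraries divide the sum equally.

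In 3 groups the division among copies changed between libraries. Among them, his-12/his-16/his-43 and his-17/his-27/his-49 are the groups without a single name in the annotation. It names his-43 as his-12 and his-27 as his-49, whereas his-16 and his-17 keep their own names. In every library his-12 and his-43 were equal, as were his-27 and his-49. Whether his-16 and his-17 are copies of the others was not settled. The H2A genes his-12, his-16 and his-43 had equal values in 5 libraries. In chaetocin replicate 2 the table lists 0 for his-12 and his-43 and 12.8 FPKM for his-16. Their sum was 6.08, 12.8 and 5.75 FPKM with chaetocin, against 9.20, 8.49 and 7.53 FPKM with DMSO. As single genes, his-12 and his-43 had groups that did not overlap, and their sum with his-16 did overlap through chaetocin replicate 2. The log2 fold change of his-16 alone was 0.40 ± 0.69 (limma adjusted p = 0.7997), and -0.48 without chaetocin replicate 2.

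The H2A genes his-19, his-21, his-51 and his-53, which share a single name in the annotation, were also split. In chaetocin replicate 2, his-19 and his-53 were listed at 2.06 FPKM and his-21 and his-51 at 0. The sum over the 4 genes was 3.26, 4.12 and 1.47 FPKM with chaetocin, against 4.22, 3.87 and 3.63 FPKM with DMSO, with overlap. The sum differed between groups by a log2 fold of -0.51 ± 0.35 (limma adjusted p = 0.481), and -0.80 ± 0.32 without chaetocin replicate 2. In the H3 genes his-17, his-27 and his-49, his-17 held the whole sum in chaetocin replicate 2 (4.15 FPKM), chaetocin replicate 3 (2.27 FPKM) and DMSO replicate 2 (6.95 FPKM), and the 3 genes were equal elsewhere. The most negative single-gene log2 fold change, -1.94 ± 1.14, was that of the H2A copies his-12 and his-43, whose listed 0 in chaetocin replicate 2 enters it. For both, the authors' deposited table gives -1.09 ± 0.56. The most positive was 0.80 ± 0.40 for the H2B gene his-8 (limma 95% interval -0.16 to 1.77).

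For H4, the balance of estimates above and below 0 turned on chaetocin replicate 2, whereas the mean summed FPKM of the class stayed higher with chaetocin. With all libraries, of 16 H4 genes tested, 12 were above 0 and 4 below, with a median log2 fold change of 0.09. H2A had 3 above and 12 below (median -0.23), H2B 4 and 10 (median -0.19) and H3 4 and 14 (median -0.09). With copies summed, the counts above and below 0 were 8 and 4 for H4, 2 and 7 for H2A, 3 and 6 for H2B, and 3 and 10 for H3. Without chaetocin replicate 2, the 16 H4 genes had 4 above and 12 below 0 (median -0.14), H2A 2 and 13, H2B 2 and 12, and H3 3 and 15. Without that library and with copies summed, the counts were 4 and 8 for H4, 2 and 7 for H2A, 2 and 6 for H2B, and 3 and 10 for H3. Summed FPKM of H4 genes without UTRs stood at a ratio of chaetocin to DMSO of 1.12 with that library and 0.995 without it. For all 16 H4 genes the ratio was 1.11 with it and 1.06 without it, with overlapping groups. For his-37, the H4 gene with UTRs, it was 1.11 and 1.09. None of these genes passed the test (0 of 64), so the directions are a description.

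Among the H4 genes, his-60 of a 4-gene cluster on chromosome IV had the highest level without UTRs. It had 89.7, 97.8 and 74.6 FPKM with chaetocin, against 67.5, 66.8 and 83.7 FPKM with DMSO. DMSO replicate 3 lay above chaetocin replicate 3, and at 0.26 ± 0.12 the log2 fold change was short of the threshold (limma adjusted p = 0.296). The copies his-46 and his-56 summed to 35.1, 57 and 32.3 FPKM with chaetocin, against 30.9, 39.3 and 41.4 FPKM with DMSO. Chaetocin replicate 2 was the highest of the 6 libraries. For this sum the log2 fold change was 0.12 ± 0.22 (limma adjusted p = 0.817), and -0.13 ± 0.13 without that library.

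A pair of H4 genes, chosen after their values were seen, passed the test only when 1 library was left out. For his-38 the values were 9.82, 9.71 and 9.06 FPKM with chaetocin, against 7.23, 6.66 and 9.66 FPKM with DMSO. DMSO replicate 3 lay inside the range of the chaetocin libraries. The log2 fold change was 0.29 ± 0.14 (limma adjusted p = 0.305), and 0.45 without DMSO replicate 3 (adjusted p = 0.0276). It was the only histone gene called in that fit, where 839 genes were higher and 530 lower of 14976 tested. The values of his-67 were 19.1, 19.4 and 13.3 FPKM with chaetocin, against 13.3, 13.3 and 15.5 FPKM with DMSO. Chaetocin replicate 3 stood with the DMSO libraries. The log2 fold change of his-67 was 0.28 ± 0.15 (limma adjusted p = 0.376), and 0.46 without chaetocin replicate 3 (adjusted p = 0.044). Again no other histone gene was called in that fit, where 533 genes were higher and 330 lower of 14938 tested.

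H2B and H3 genes without UTRs were low and scattered. In H2B, the copies his-58 and his-66 summed to 22.3, 42.1 and 26.6 FPKM with chaetocin, against 23.7, 26.5 and 30.4 FPKM with DMSO (log2 fold change 0.13 ± 0.23, limma adjusted p = 0.805), and without chaetocin replicate 2 the log2 fold change was -0.13 ± 0.13. The H2B gene his-48 had 16.6, 18.9 and 10.9 FPKM with chaetocin, against 12.4, 23.4 and 18.9 FPKM with DMSO (log2 fold change -0.23 ± 0.28, limma adjusted p = 0.713, and -0.39 ± 0.30 without chaetocin replicate 2). Both pairs of groups overlapped. The H2B copies his-11, his-15 and his-44 summed to 11.9, 24.6 and 13.6 FPKM with chaetocin, against 17.05, 20.2 and 17.9 FPKM with DMSO. Their log2 fold change was -0.21 ± 0.26 with all libraries (limma adjusted p = 0.708) and -0.53 ± 0.10 without chaetocin replicate 2 (adjusted p = 0.0446).

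In H3, his-59 had 9.38, 18.4 and 8.69 FPKM with chaetocin, against 10.2, 14.2 and 13.8 FPKM with DMSO (log2 fold change -0.14 ± 0.29, limma adjusted p = 0.836). Without chaetocin replicate 2 the log2 fold change of his-59 was -0.48 ± 0.16, with an adjusted p of 0.184 in the fit with copies summed. The copies his-45 and his-55 summed to 12.02, 17.98 and 15.7 FPKM with chaetocin, against 13.8, 15.8 and 13.5 FPKM with DMSO (log2 fold change 0.07 ± 0.15, limma adjusted p = 0.842, and -0.06 ± 0.13 without chaetocin replicate 2). For his-32 the values were 8.19, 6.13 and 5.22 FPKM with chaetocin, against 9.07, 5.79 and 6.03 FPKM with DMSO (log2 fold change -0.09 ± 0.22, limma adjusted p = 0.865). In all of these the groups overlapped.

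Levels within a cluster were uneven in both groups. In the 4-gene cluster of his-59 to his-62 on chromosome IV, the H4 gene his-60 had 87.4 ± 11.8 FPKM with chaetocin and 72.7 ± 9.58 FPKM with DMSO (SD, n = 3 each). Its neighbours his-59, his-61 and his-62 lay between 10.9 and 14.7 FPKM on average in either group. The largest cluster, 13 genes within 10938 bases of chromosome II, summed to 46.7, 74.2 and 43.2 FPKM with chaetocin, against 59.1, 61.6 and 61.9 FPKM with DMSO. Chaetocin replicate 2 was above and the other chaetocin libraries were below all DMSO libraries.

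Chaetocin replicate 2 had the highest value of the 6 libraries in 15 of the 36 tested features without UTRs. Each other library was the highest in 2 to 6 of them, namely 2 and 2 for chaetocin replicates 1 and 3, and 6, 5 and 6 for DMSO replicates 1 to 3. Among the chaetocin libraries it was the highest in 25 of 36, and among the DMSO libraries replicates 1, 2 and 3 were the highest in 10, 8 and 18. Of the 8 genes with UTRs it was the highest in 2. This pattern was noticed after the values were seen. The library also had the largest shares of ribosomal RNA, given above, and of small nucleolar RNA, with 0.0818, 0.206 and 0.0927% of FPKM in the chaetocin libraries and 0.0778, 0.147 and 0.0866% in the DMSO libraries. Within the DMSO group replicate 2 had the largest shares of both, and it was the highest for the fewest of these features. Single ribosomal RNA genes differed in this. In DMSO replicates 1 to 3, rrn-2.1 had 15975, 31487 and 8033 FPKM, highest in replicate 2. There rrn-1.1 had 926, 1101 and 2269 FPKM and rrn-3.1 had 1406, 1524 and 3017 FPKM, both highest in replicate 3. Genes annotated as ncRNA took 0.715, 2.45 and 0.895% of FPKM in the chaetocin libraries. In the DMSO libraries they took 0.882, 1.09 and 1.71%, also highest in replicate 3. Small nuclear RNA took 0.0056, 0.0121 and 0.0043% in the DMSO libraries, highest in replicate 2. Ribosomal and small nucleolar RNAs have no poly(A) tail, and their part in the histone values was not tested.

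Without chaetocin replicate 2, 16 of 64 histone genes stood at an unadjusted limma p under 0.05, copies counted singly, beside 17.9% of all genes in that fit. The median log2 fold change of the 64 was -0.26, against -0.01 over all genes in that fit. This library was singled out after its high values in these genes were seen, so leaving it out lowers the chaetocin side. In the fits without 1 of the other libraries, between 4 and 9 histone genes were under 0.05. Their medians lay between -0.10 and 0.006. By the limma adjusted p, 0 histone genes passed, where 545 genes were higher and 294 lower of 14973 tested. With copies summed, 2 of the histone features were lower, his-9/his-13/his-25 and his-11/his-15/his-44, where 5.65% of all features passed.

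**Figure D4:**
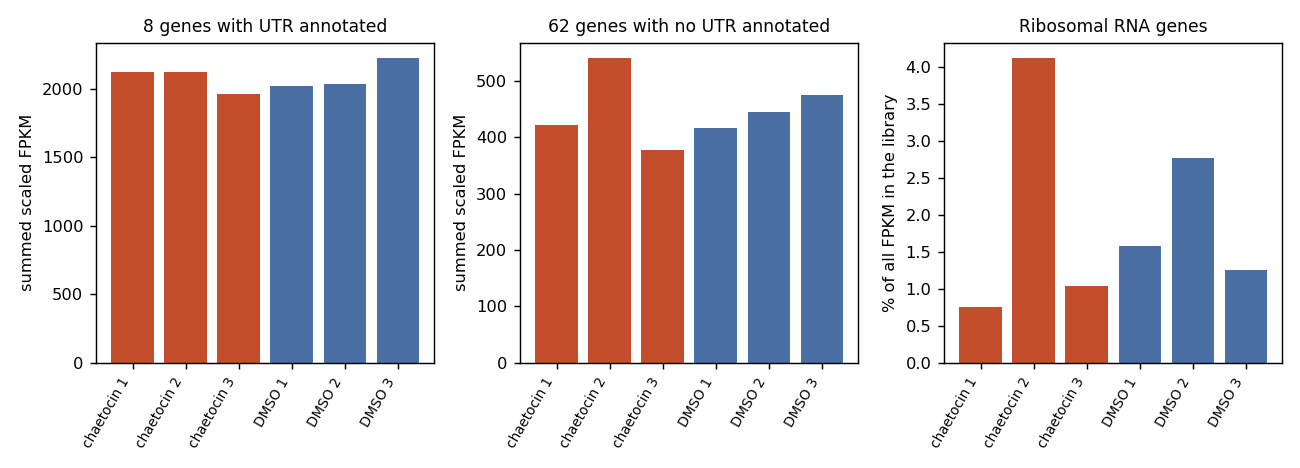
Summed scaled FPKM of the 8 histone genes with UTRs (left) and of the 62 without (middle), and ribosomal RNA as a percentage of all FPKM (right), per library, chaetocin in red and DMSO in blue. Chaetocin replicate 2 is highest in the middle panel at 541 FPKM and in the right panel at 4.13%.

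The list of histone genes that carry other names held the H1-like hil genes, the H2A.Z gene htz-1 and the centromeric H3 genes hcp-3 and cpar-1, and of 11 genes tested 0 passed in either direction, beside 8.48% of all genes, with a median log2 fold change of -0.09. The hil-1 gene had 51.3, 53.6 and 54.7 FPKM with chaetocin, against 57.8, 59.2 and 61.1 FPKM with DMSO, without overlap. Its log2 fold change of -0.16 ± 0.04 missed the threshold (limma adjusted p = 0.0663). The htz-1 gene had 981, 971 and 939 FPKM with chaetocin, against 982, 1028 and 1062 FPKM with DMSO, also without overlap but with a narrow gap (log2 fold change -0.09 ± 0.04, limma adjusted p = 0.272). On the log2 scale the fold change was -0.10 ± 0.05 for hil-2 (limma adjusted p = 0.351) and -0.19 ± 0.13 for hil-3 (limma adjusted p = 0.475).

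Genes that process histone mRNA or handle histone proteins did not pass the test either, with 0 higher and 0 lower of 16, beside 8.48% called over all genes, and a median log2 fold change of -0.05. The stem-loop binding protein gene cdl-1 had 171, 169 and 168 FPKM with chaetocin, against 179, 178 and 175 FPKM with DMSO. These groups did not overlap, and the log2 fold change of -0.07 ± 0.03 had a limma adjusted p of 0.205. The genes hmg-4, of the FACT histone chaperone, nasp-2, of the NASP family of histone chaperones, and xnp-1, the worm relative of ATRX, had log2 fold changes between -0.09 and -0.06. Their adjusted p in the limma fit were 0.1995 for hmg-4, 0.266 for nasp-2 and 0.254 for xnp-1.

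Genes of DNA replication and S phase held 1 called gene among 26 tested, beside the 8.48% called over all genes. This gene, cdt-1, a licensing factor of replication origins, fell. It had 25.6, 25.4 and 26.4 FPKM with chaetocin, against 31.01, 31.2 and 28.3 FPKM with DMSO (log2 fold change -0.22 ± 0.05, limma adjusted p = 0.0466). That call was lost in 7 of 12 alternatives. The limma adjusted p was 0.149, 0.147 and 0.103 without chaetocin replicates 1, 2 and 3, 0.158 and 0.154 without DMSO replicates 1 and 2, and 0.0595 with no filter, and over all alternatives it lay between 0.0138 and 0.158. The list's median log2 fold change was -0.06. The ribonucleotide reductase gene rnr-1 stood at -0.15 ± 0.05 on the log2 scale (limma adjusted p = 0.113). The helicase subunit genes mcm-2 and mcm-3 stood at -0.12 ± 0.04 and -0.10 ± 0.04, with adjusted p of 0.154 and 0.209 by limma. Without DMSO replicate 3, rnr-1, mcm-2 and mcm-3 passed (limma adjusted p = 0.0175, 0.046 and 0.0358). In that fit 839 genes were higher and 530 lower of 14976 tested. On unscaled FPKM rnr-1 also passed (limma adjusted p = 0.0369), where 778 genes were higher and 457 lower of 15213.

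All 26 genes of a germ line and oocyte list passed the filter on low values, and of these 0 were higher and 0 were lower, beside 8.48% called over all genes (median log2 fold change -0.05). The smallest limma adjusted p values belonged to mex-5 (0.146), lst-1 (0.176), glh-2 (0.176) and sygl-1 (0.289). Of these, mex-5 had 357, 352 and 362 FPKM with chaetocin, against 401, 401 and 367 FPKM with DMSO, a log2 fold change of -0.12 ± 0.04. It passed without DMSO replicate 3 (limma adjusted p = 0.0176), where 839 genes were higher and 530 lower of 14976 tested. Over the 4 lists the medians lay between -0.09 and -0.05, and over all genes tested the median was -0.006.

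**Figure D5:**
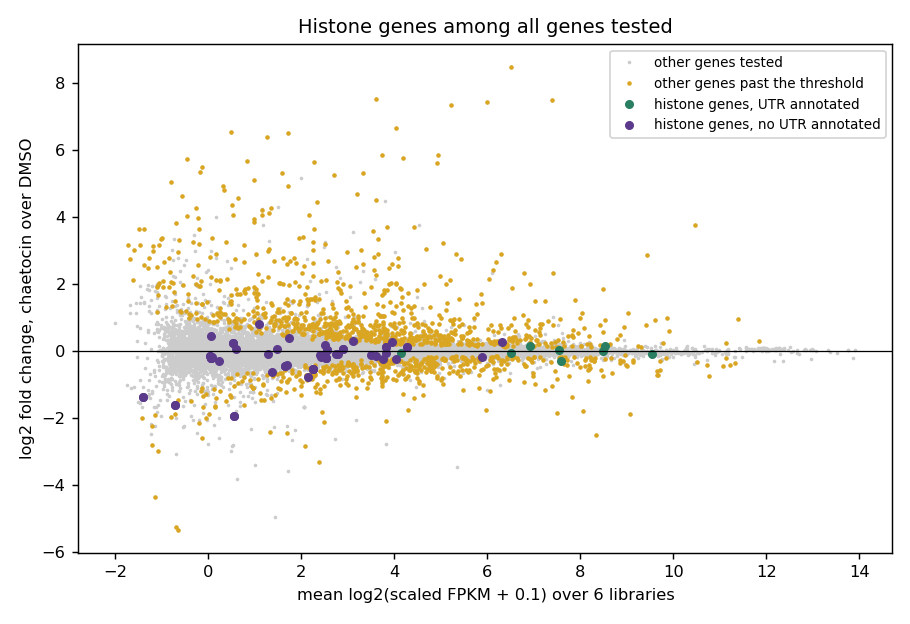
Log2 fold change of chaetocin over DMSO against mean log2(scaled FPKM + 0.1) for all 15209 genes tested, with genes past the threshold in orange and the 64 histone genes in green (UTRs annotated) and purple (not annotated). No histone gene is among the 1290 genes past the threshold.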

How the data were processed

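RNA was sequenced from 3 chaetocin and 3 DMSO libraries of whole worms. The authors deposited gene and transcript tables of FPKM. That unit was read from the values, since the tables are named as raw. Per the submitters' processing notes, the build was WBcel235 and the tools were RSEM 1.3.1, STAR 2.7.9a, Trimmomatic 0.36, MultiQC and FastQC 0.11.4. The annotation release, the strand setting and the method behind the authors' comparison are not stated (not given in the sources used here). Where a fragment fits more than 1 transcript, RSEM estimates its origin, so copies share fragments. In the authors' deposited table of 16062 coding genes, the log2 fold change (turned here to chaetocin over DMSO), its standard error (read as a score), the p-value (read as adjusted) and the mean normalized count (a signal) are given per the file headers.

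Library scaling used the trimmed mean of log ratios, without weights (30% of ratios and 5% of means trimmed at each end). Genes at or above 0.5 FPKM in 3 or more libraries entered limma 3.58.1 (R 4.3.3) on log2(scaled FPKM + 0.1) with a mean-variance trend. P-values are 2-sided and Benjamini-Hochberg adjusted over all genes, with a threshold of 0.05. Depth per library is unknown, so no counting intervals are given. The fit was tested on simulated data with 50 genes changed at each fold. It recovered 14% of them at 1.2-fold, 56% at 1.5-fold, 60% at 2-fold and 86% at 4-fold. The changed genes were drawn at random from all genes tested and were fewer than the genes called in the data. These rates therefore need not hold for histone genes without UTRs, whose median standard error was 0.26, against 0.09 over all genes.

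Positions, gene models and UTRs came from the Ensembl annotation of WBcel235, matched by gene identifier for 72 of 72 genes. Classes follow known gene names, checked against coding length. The planned copy groups by transcript or protein identity, and classes by protein similarity, could not be made without sequences, and equal FPKM was used instead, a choice made after seeing the data. Members, lists and tests were chosen with earlier results of these data known. Named are the replacement and linker genes, in each class up to 4 further genes of highest mean FPKM, and of each list up to 4 genes of smallest adjusted p and any called gene.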

Additional observations from a re-analysis of the deposited data

How the results depend on the processing

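Of the alternatives, a pseudocount of 1 or 0.5 FPKM, no filter, a filter of 2 FPKM and unscaled FPKM left 0 histone genes and 0 summed copy groups past the threshold. On unscaled FPKM the median over all genes was -0.02 (log2). With 1 library left out, between 0 and 1 histone genes were higher, 0 were lower, and between 0 and 2 summed copy groups passed, while the genes past the threshold over the whole table numbered between 839 and 1369, against 1290 with all libraries. The log2 ratio of summed histone FPKM lay between -0.04 and 0.05. The shared replicate numbers gave no sign of pairing (correlations of same-numbered deviations of 0.105, 0.0699 and -0.0244). Chaetocin replicate 2 correlated better with DMSO replicate 3, at 0.0766. With 3 libraries in each group such correlations cannot exclude pairing. The authors named the DMSO libraries NA1, NA3 and NA4 and the chaetocin libraries NB1, NB2 and NB3. Names and replicate numbers thus differ for DMSO replicates 2 and 3, and a block by these names was not fitted. With the replicate block, 831 genes and 0 histone genes passed, and the limma adjusted p of cdt-1 was 0.151.

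Some estimates changed sign when 1 library was left out. For his-16 that library was chaetocin replicate 2, where the table lists the whole sum of its copy group under it; for the others the cause was not tested. Over the fits without 1 library, the log2 fold change ran from -0.0038 to 0.081 for his-35, from -0.085 to 0.0050 for his-71, from -0.051 to 0.026 for his-74, from -0.29 to 0.082 for his-57, from -0.48 to 0.85 for his-16 and from -0.48 to 0.0071 for his-48. It ran from -0.13 to 0.32 for his-58 and his-66, from -0.48 to 0.057 for his-59, from -0.059 to 0.23 for his-45 and his-55, from -0.26 to 0.11 for his-32 and from -0.13 to 0.28 for his-46 and his-56. Standard errors were largest among the genes without UTRs, most of which also had low FPKM. The reason for their spread was not tested. For his-57, a gene with UTRs, the standard error was 0.20 with all libraries and 0.07 without chaetocin replicate 2. Summing copies by protein identity was not run.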

Other observations

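A pair of short models named as histone genes was put in no class. The model of his-73, 141 bases on chromosome II with 46 codons, was listed at 30.5, 0 and 15.7 FPKM in chaetocin replicates 1 to 3, and at 0 in every DMSO library. The his-39 model, of 67 codons on chromosome V, was listed at 0, 2.89 and 0 FPKM in the chaetocin libraries, and at 0 in every DMSO library. Both were below the filter, and no fold is given against values listed at 0.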
